A study of Mus musculus with 18 samples.

Results

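The genes described here encode the proteasome: its core and regulatory subunits, its activators, its inhibitor and its assembly factors. They were chosen by symbol alone, as every gene whose name begins with Psm, a letter from a to g and a number, pseudogenes left out. The rule found 49 genes among the 14695 genes of the table. CD8+ T cells were taken as primary cells from mouse spleen and lymph node, edited with CRISPR/Cas9 and cultured for 24 hours, and their poly-A RNA was sequenced. Halofuginone, an inhibitor of prolyl-tRNA synthetase that activates the amino acid stress response, was present in 9 of the 18 libraries. The 6 groups had 3 libraries each and were Cebpg KO with halofuginone, Cebpg KO untreated, Atf4 KO with halofuginone, Atf4 KO untreated, Rosa26 with halofuginone and Rosa26 untreated. Rosa26 is a neutral locus whose editing serves as the control for the CRISPR procedure, which all groups went through. The sources used here do not give the strain, age or number of the mice, the dose, the promoter that drives Cas9 or the guides. Nothing in the labels ties a replicate number to an animal or a culture, so the p-values below measure only the spread between these samples, which may be technical.

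The proteasome degrades proteins that carry ubiquitin chains. Its core is a barrel of outer alpha rings and inner beta rings, and 3 of the beta subunits cut peptide bonds: Psmb6 after acidic residues, Psmb7 after basic residues and Psmb5 after hydrophobic residues. In lymphocytes, and in other cells exposed to interferon gamma, Psmb9, Psmb10 and Psmb8 take the places of Psmb6, Psmb7 and Psmb5 and form the immunoproteasome, whose products suit loading onto MHC class I. The 19S cap binds, unfolds and feeds in substrates through a ring of ATPases (Psmc genes) and a set of other subunits (Psmd genes). Psme genes encode alternative activators, Psmf1 encodes an inhibitor, and Psmg genes encode chaperones that assemble the core.

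By role, the 49 genes comprised 7 alpha subunits, 7 constitutive beta subunits, 3 immunoproteasome subunits, 6 ATPases of the 19S cap, 11 other 19S subunits, 3 chaperones of the 19S base, 4 activators, 1 inhibitor and 4 core assembly chaperones. The remaining 3 are not subunits or need care. Psmc3ip and Psme3ip1 encode partners of proteins after which they are named, and Psme2b is a near-identical copy of Psme2 whose reads may be shared with it, so its values are uncertain. All 49 had values in the table, and none was lost to a filter made here.

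The catalytic subunits and their immunoproteasome counterparts are the members set against each other below. The promoters of the 4 of them that held a match to a searched motif are shown. Psmb10 held no match to any motif searched, and no window was found for Psmb7. The sequences are the 250 bases before the annotated start, from RefSeq on build GRCm38.p6, written 5′ to 3′ on the strand of the gene. In Psmb5 (chr14:54617996-54618245, minus strand) and Psmb6 (chr11:70525107-70525356, plus strand) the capitals mark a match to the core of an antioxidant response element, TGACNNNGC. The matches began 47 and 9 bases before the start. In Psmb8 (chr17:34197945-34198194, plus strand) the capitals mark a match to a gamma-activated site, TTCNNNGAA, 97 bases before the start. In Psmb9 (chr17:34187331-34187580, minus strand) they mark a match to a CCAAT box in the opposite orientation, 8 bases before the start. Matches of letters do not show binding, and their shares over all promoters are given below.
Psmb5: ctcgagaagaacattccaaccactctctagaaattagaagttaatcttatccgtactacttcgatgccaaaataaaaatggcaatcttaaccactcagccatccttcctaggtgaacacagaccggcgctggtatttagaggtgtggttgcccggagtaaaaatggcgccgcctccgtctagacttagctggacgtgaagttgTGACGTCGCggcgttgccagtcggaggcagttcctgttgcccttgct
Psmb6: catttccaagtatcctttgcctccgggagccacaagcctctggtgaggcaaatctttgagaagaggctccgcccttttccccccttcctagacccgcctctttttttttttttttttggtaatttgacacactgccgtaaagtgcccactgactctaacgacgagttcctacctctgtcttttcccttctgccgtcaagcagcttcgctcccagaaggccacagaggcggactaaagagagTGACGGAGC
Psmb8: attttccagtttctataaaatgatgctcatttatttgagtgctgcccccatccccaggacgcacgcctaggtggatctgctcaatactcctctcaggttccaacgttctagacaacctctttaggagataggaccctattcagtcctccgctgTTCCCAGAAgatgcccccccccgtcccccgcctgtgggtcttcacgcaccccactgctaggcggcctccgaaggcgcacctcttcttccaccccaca
Psmb9: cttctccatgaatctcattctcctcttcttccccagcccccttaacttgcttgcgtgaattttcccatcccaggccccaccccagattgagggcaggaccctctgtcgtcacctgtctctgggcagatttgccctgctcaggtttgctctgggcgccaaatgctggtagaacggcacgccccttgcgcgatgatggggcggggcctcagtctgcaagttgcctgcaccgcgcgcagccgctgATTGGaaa

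Total counts per library were 14.2 to 20.3 M (mega counts). Cd8a was at 930 to 1169 CPM (counts per 1 M counts, scaled with TMM factors) in every library, and all 10 CD8 T-cell markers listed were measured. Their summed level was 3550 to 3837 CPM in Cebpg KO libraries with halofuginone, against 4416 to 4463 CPM untreated, and 3387 to 4240 CPM in Atf4 KO libraries with halofuginone, against 4388 to 4566 CPM untreated. In Rosa26 libraries the ranges of that sum overlapped, at 3892 to 4614 CPM with halofuginone and 4413 to 4503 CPM untreated. Of the markers of other cells, Cd4, Ms4a1, Lyz2, Csf1r, Ncr1 and Klrb1c were not among the genes analysed. The NK-cell list thus lacked Ncr1 and Klrb1c, and its 4 measured genes were Nkg7, Klrk1, Eomes and Klrd1. The summed level of 4 measured NK-cell markers of 6 listed was 414.5 to 486.2 CPM in Rosa26 libraries with halofuginone, against 322.6 to 341.3 CPM in untreated Rosa26 libraries, and its ranges were likewise separate in both knockouts. The 5 measured B-cell markers summed to 436 to 497.9 CPM in Rosa26 libraries with halofuginone, against 396.6 to 432.7 CPM untreated. The ranges of this sum were separate in Cebpg KO too, at 439.1 to 491.1 CPM with halofuginone and 409.5 to 419.8 CPM untreated. They overlapped in Atf4 KO, at 406.5 to 492.7 CPM with halofuginone and 406.8 to 421.2 CPM untreated. The 2 measured myeloid markers of 11 listed summed to 7.33 to 9.25 CPM in Rosa26 libraries with halofuginone, against 2.93 to 3.26 CPM untreated, with separate ranges in both knockouts too. Of 8 erythroid and platelet markers listed, 3 were measured. Their sums overlapped in Rosa26 libraries, at 4.04 to 7.97 CPM with halofuginone and 3.03 to 5.16 CPM untreated. With halofuginone these sums were 8.77 to 12.3 CPM in Atf4 KO, against 3.94 to 7.95 CPM untreated. In Cebpg KO they were 7.08 to 12.6 CPM with halofuginone, against 3.23 to 5.33 CPM untreated. The 4 measured CD4 T-cell markers of 7 listed were lower in both knockouts than in Rosa26. Untreated, they summed to 716.4 to 789.6 CPM in Cebpg KO and 593.7 to 661.8 CPM in Atf4 KO, against 800 to 847.2 CPM in Rosa26 libraries. With halofuginone they summed to 659.3 to 707.9 CPM in Cebpg KO and 619.8 to 655.4 CPM in Atf4 KO, against 800 to 846.4 CPM in Rosa26 libraries. The part of these sums in the drug and knockout results was not tested.

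Knockout by small insertions and deletions need not lower a transcript count. Untreated, Atf4 mRNA differed from Rosa26 by 0.09 on the log2 scale in Atf4 KO cells and Cebpg mRNA by 0.07 in Cebpg KO cells, and neither passed the test. With halofuginone Cebpg mRNA had 93.4, 104 and 105 CPM in Cebpg KO, 132, 123 and 137 CPM in Atf4 KO and 169, 183 and 167 CPM in Rosa26 cells, and these groups did not overlap. It was lower in Cebpg KO than in Rosa26 cells (-0.78 ± 0.0601, adjusted p = 3.19e-08) and than in Atf4 KO cells (-0.37 ± 0.0602, 0.00442), the direction of the label. Atf4 mRNA with halofuginone had 300.1, 267 and 378 CPM in Atf4 KO and 357, 428 and 351 CPM in Rosa26 cells, which overlapped (-0.26 ± 0.101, adjusted p = 0.0587), so its count does not check the Atf4 KO label. Libraries also differed in the share of counts in genes of the annotation class TEC, unverified transcripts that are often unspliced. The share was 0.0542% to 0.225% in Rosa26 with halofuginone, against 0.09997% to 0.133% in untreated Rosa26. It was 0.0735% to 0.302% in Atf4 KO with halofuginone, against 0.194% to 0.250% untreated, and 0.151% to 0.287% in Cebpg KO with halofuginone, against 0.199% to 0.213% untreated. In each halofuginone group the library lowest in TEC counts stood apart from the other 2: replicate 2 of Rosa26, and replicate 3 of both Atf4 KO and Cebpg KO. Where leaving out these 3 libraries changes the call of a single proteasome gene printed below, its value without them is given too.

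Proteasome transcripts took a smaller share of all counts with halofuginone in each genotype, and a smaller share in both knockouts than in Rosa26. The 49 genes took 0.678%, 0.710% and 0.639% of counts in Rosa26 cells with halofuginone, against 0.834%, 0.846% and 0.814% in untreated Rosa26 cells. In Atf4 KO cells they took 0.530%, 0.516% and 0.597% with halofuginone, against 0.701%, 0.688% and 0.679% untreated. Cebpg KO cells gave 0.546%, 0.547% and 0.603% with halofuginone, against 0.749%, 0.720% and 0.729% untreated. No halofuginone library reached the lowest untreated library of its genotype, and no knockout library reached the lowest Rosa26 library of its culture. Means were 0.548% ± 0.0428 in Atf4 KO and 0.566% ± 0.0325 in Cebpg KO with halofuginone, against 0.676% ± 0.0354 in Rosa26 with halofuginone (SD, n = 3 each). Fewer cells rich in these transcripts and less of them per cell cannot be told apart in bulk RNA. The library lowest in TEC counts had the highest proteasome share of its halofuginone group in all 3 genotypes. Both untreated knockouts lay above untreated Rosa26 in TEC share with no overlap, so TEC share and genotype moved together; a fit with a term for TEC share stands beside the knockout results below.

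**Figure D1:**
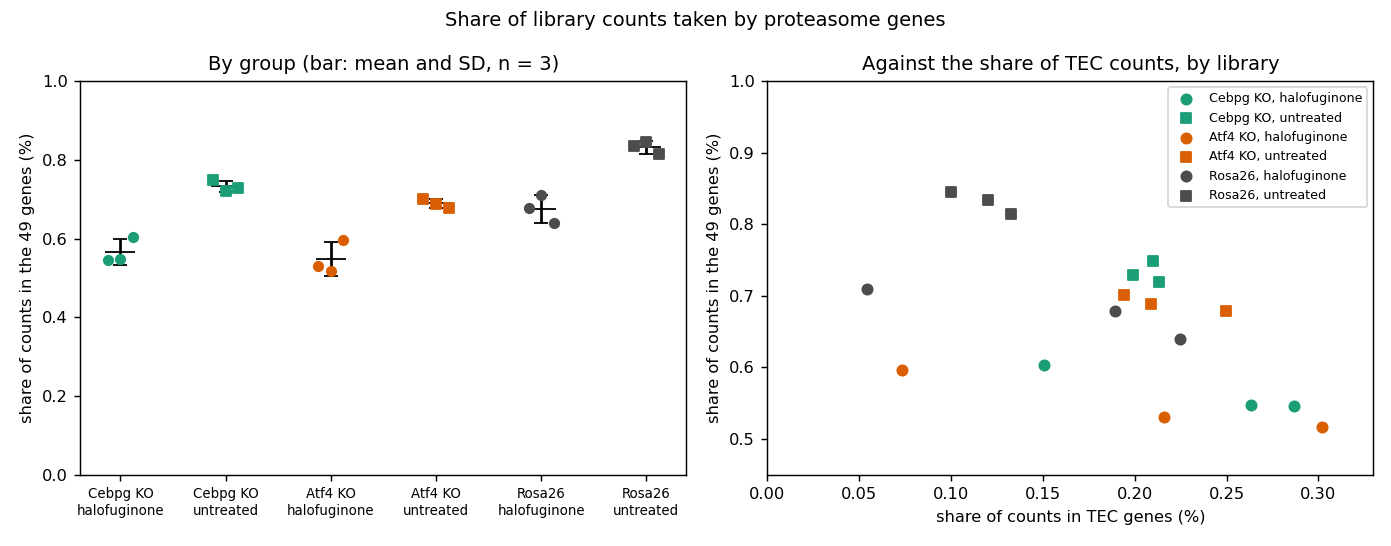
The left panel plots the share of each library's counts in the 49 proteasome genes (%) by group, with the mean and SD of 3 libraries as bars. The right panel plots the same share against the share of counts in TEC genes (%), 1 point per library. Halofuginone libraries lie between 0.516% and 0.710%, and untreated libraries between 0.679% and 0.846%.

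Among the members, levels per exon length in untreated Rosa26 cells were highest for Psmb8, at 178 ± 4.65 CPM per kb of exon (SD, n = 3), followed by Psme2 at 171 ± 4.697 and Psme1 at 153 ± 11.03 CPM per kb. Psma6 at 152 ± 3.29 and Psmb4 at 150.4 ± 6.52 CPM per kb came next. The libraries of Psmb8 and Psme2 overlapped, as did those of Psme1, Psma6 and Psmb4, so the order within each of these sets is uncertain. The lowest was Psmg3, a core assembly chaperone, at 4.52 ± 0.244 CPM per kb. The median level per length was 94.5 CPM per kb over alpha subunits, 83.2 over constitutive beta subunits, 80.3 over immunoproteasome subunits, 81.8 over ATPases, 55.6 over other 19S subunits and 10.3 over base chaperones. Before any treatment Psmb8 was thus above every constitutive core subunit per length, and Psmb9, at 55.8 ± 2.496 CPM per kb, and Psmb10, at 80.3 ± 3.13 CPM per kb, were within their range. The length of a gene was that of all its annotated exons together, such as 899 bp for Psmb5 and 3660 bp for Psmb9. The transcripts expressed here may be shorter, so every ranking per length depends on these lengths.

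Transcripts of most subunits fell with halofuginone in every genotype. In Rosa26 cells 29 of 49 members fell and 2 rose at an adjusted p under 0.05 (edgeR's quasi-likelihood test, Benjamini-Hochberg adjustment over 14695 genes), where 47.7% of all genes passed, 24.1% of them lower and 23.6% higher as shares of all genes. In Atf4 KO cells 29 fell and 3 rose, where 26.5% of all genes fell and 23.1% rose. In Cebpg KO cells 36 fell and 0 rose, where 51.0% of all genes passed, 28.0% lower and 23.1% higher. The members' median log2 fold change was -0.38 in Rosa26, -0.40 in Atf4 KO and -0.50 in Cebpg KO cells, and the median over all genes was 0.02, -0.04 and -0.03 in that order. With upper-quartile scaling the members gave 6 higher and 28 lower in Rosa26 cells and 5 higher and 32 lower in Cebpg KO cells. That scaling moved the median of all genes in Cebpg KO cells to 0.08, and the members' median to -0.40. At an unadjusted p under 0.05, 1 member was higher in Cebpg KO cells, and DESeq2 called 37 members in all there. In all 3 genotypes 27 members fell, 10 fell in 1 or 2 genotypes and 12 fell in none. These 3 comparisons share no library. Without the 3 libraries lowest in TEC counts 37, 39 and 40 members fell in Rosa26, Atf4 KO and Cebpg KO cells.

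**Figure D2:**
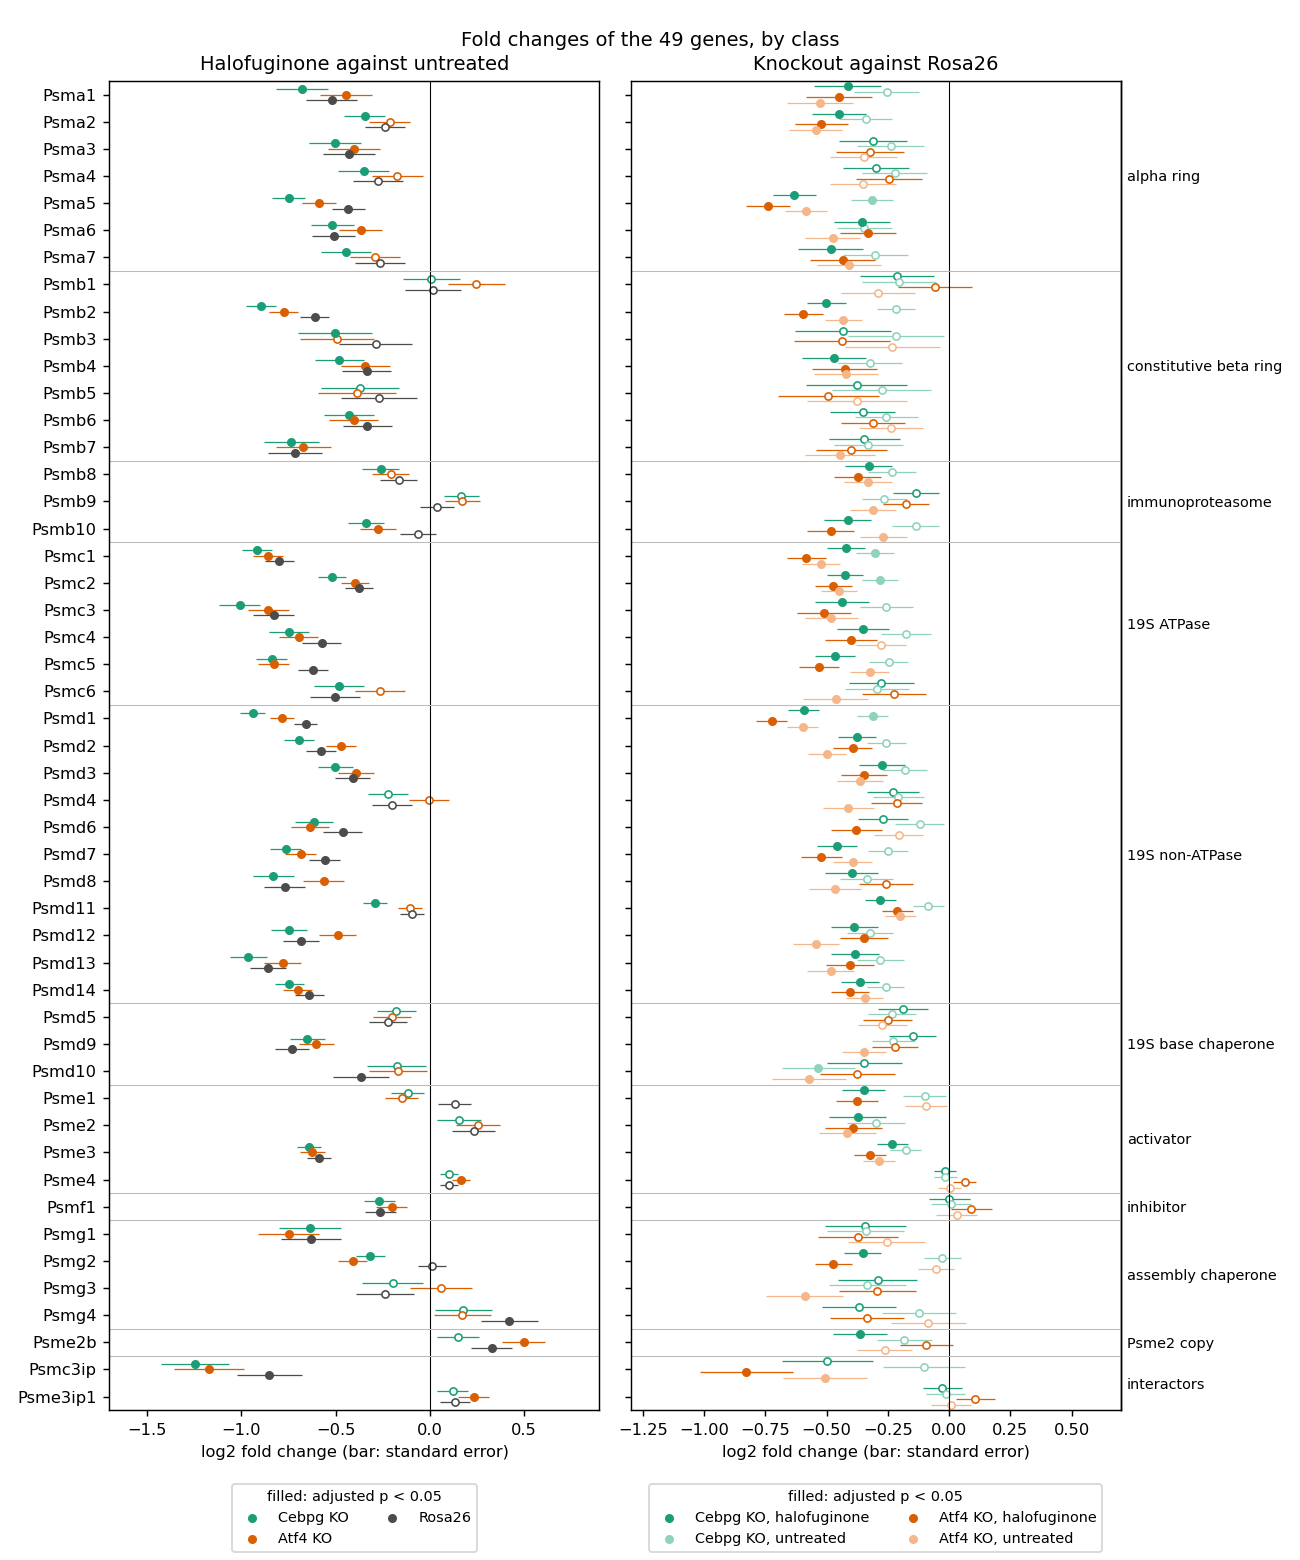
Each point is the log2 fold change of 1 proteasome gene and its bar is the standard error. The left panel gives halofuginone against untreated in 3 genotypes and the right panel gives each knockout against Rosa26 in both cultures; filled points passed an adjusted p of 0.05. Of the points on the left, 29, 29 and 36 fell in Rosa26, Atf4 KO and Cebpg KO cells, and on the right all filled points lie below 0.

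Of the 7 alpha ring genes, 4 fell with halofuginone in Rosa26, 4 in Atf4 KO and all 7 in Cebpg KO cells. The shares of all genes that fell were 24.1%, 26.5% and 28.0% in the same order. Psma5 had the smallest adjusted p of the ring in each genotype. It had 127, 149 and 118 CPM in Rosa26 cells with halofuginone, against 175, 184 and 174 CPM untreated. Atf4 KO cells had 69.6, 74.3 and 92.4 CPM with halofuginone, against 121, 116 and 118 CPM untreated. Cebpg KO cells had 82.1, 83.2 and 89.5 CPM with halofuginone, against 141, 139.7 and 147 CPM untreated. The treated and untreated libraries did not overlap in any genotype, and every treated knockout library lay below every treated Rosa26 library. Log2 fold changes with halofuginone were -0.43 ± 0.0864 in Rosa26 (adjusted p = 0.000331), -0.59 ± 0.0885 in Atf4 KO (1.34e-05) and -0.75 ± 0.0882 in Cebpg KO cells (5.34e-07). Psma7, another alpha subunit, had 228, 287 and 210.1 CPM in Rosa26 cells with halofuginone, against 295, 293 and 283 CPM untreated. Replicate 2 reached the untreated level and the groups overlapped (-0.27 ± 0.132, adjusted p = 0.11). The Rosa26 value passed without the 3 libraries lowest in TEC counts, at -0.37 (adjusted p = 1.2e-05). In Cebpg KO cells Psma7 had 152, 174 and 193 CPM with halofuginone, against 252, 223 and 232 CPM untreated, a log2 change of -0.45 ± 0.133 (adjusted p = 0.00964, and 0.0528 without treated replicate 1).

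Psma1 had 145, 179 and 139 CPM in Rosa26 cells with halofuginone, against 230.1, 221 and 213 CPM untreated. It had 96.7, 93.2 and 149 CPM in Atf4 KO cells with halofuginone, against 159, 145 and 157 CPM untreated. The groups were separate in Rosa26 cells and overlapped in Atf4 KO cells, where replicate 3, the library low in TEC counts, lay among the untreated ones. The Atf4 KO change of -0.44 ± 0.136 (adjusted p = 0.012) lost its call without treated replicate 1 (adjusted p = 0.0644) or 2 (0.0662).

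The 7 constitutive beta subunits did not move alike: 4 fell with halofuginone in Rosa26, 4 in Atf4 KO and 5 in Cebpg KO cells. Shares of all genes that fell were 24.1%, 26.5% and 28.0% in that order. Among the beta subunits that fell in all 3 genotypes was Psmb2, a structural subunit without catalytic activity. Psmb2 had 101, 117 and 96.2 CPM in Rosa26 cells with halofuginone, against 160.4, 165 and 154 CPM untreated. It had 67.3, 64.04 and 76.3 CPM in Atf4 KO cells with halofuginone, against 119, 112 and 125 CPM untreated. It had 69.9, 70.3 and 81.5 CPM in Cebpg KO cells with halofuginone, against 136, 139 and 137 CPM untreated. Treated and untreated libraries were far apart in each genotype, with log2 fold changes of -0.61 ± 0.0774, -0.78 ± 0.0791 and -0.90 ± 0.0789 in Rosa26, Atf4 KO and Cebpg KO cells (adjusted p at most 1.80e-06). Psmb1, also structural, was at 0.02 ± 0.1505, 0.25 ± 0.151 and 0.01 ± 0.151 in the same order and passed in none (lowest adjusted p = 0.195).

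The catalytic subunit of trypsin-like activity, Psmb7, fell in each genotype. Its levels in Rosa26 cells were 114, 138 and 101 CPM with halofuginone, against 204, 189.5 and 188 CPM untreated. In Atf4 KO cells they were 79.4, 72.5 and 116 CPM with halofuginone, against 146, 142 and 138 CPM untreated. In Cebpg KO cells they were 81.9, 89.4 and 107 CPM with halofuginone, against 163, 148 and 152 CPM untreated. No treated library reached an untreated one of the same genotype, and the log2 fold changes were -0.72 ± 0.143 in Rosa26 (adjusted p = 0.000532), -0.67 ± 0.145 in Atf4 KO (0.000974) and -0.73 ± 0.145 in Cebpg KO cells (0.000419).

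Psmb6, the caspase-like subunit, also fell in each genotype. Rosa26 cells had 107, 153 and 112 CPM with halofuginone, against 151, 164 and 152 CPM untreated. Atf4 KO cells had 99.8, 86.9 and 113 CPM with halofuginone, against 138, 135 and 124 CPM untreated. In Cebpg KO cells the levels were 79.1, 98.6 and 113 CPM with halofuginone, against 134, 126 and 131 CPM untreated. The groups overlapped in Rosa26 cells, through treated replicate 2, and not in the knockouts. The log2 fold change was -0.33 ± 0.129 in Rosa26 cells (adjusted p = 0.0442), a call lost without untreated replicate 1 (0.0692), 2 (0.132) or 3 (0.0699) or treated replicate 1 (0.191) or 3 (0.161). It was -0.40 ± 0.131 in Atf4 KO cells (adjusted p = 0.016), lost without untreated replicate 1 (0.0516) or treated replicate 2 (0.0807). It was -0.43 ± 0.131 in Cebpg KO cells (adjusted p = 0.0113), lost without treated replicate 1 (0.0664).

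Psmb5, the chymotrypsin-like subunit and main target of clinical proteasome inhibitors, varied widely between treated replicates. It had 54.8, 75.8 and 50.99 CPM in Rosa26 cells with halofuginone, against 68.7, 80.3 and 69.6 CPM untreated. It had 32.8, 33.9 and 61.99 CPM in Atf4 KO cells with halofuginone, against 62.4, 55.1 and 50.9 CPM untreated. It had 43.7, 43.6 and 52.5 CPM in Cebpg KO cells with halofuginone, against 65.1, 53.6 and 61.9 CPM untreated. The treated library low in TEC counts was the highest of its group each time, and treated and untreated libraries overlapped in Rosa26 and Atf4 KO cells. Log2 fold changes were -0.27 ± 0.202, -0.39 ± 0.207 and -0.37 ± 0.206 in Rosa26, Atf4 KO and Cebpg KO cells, and none passed (adjusted p = 0.3, 0.14 and 0.153). Without the 3 libraries lowest in TEC counts all 3 passed, at -0.42 (adjusted p = 3.6e-05), -0.72 (1.07e-08) and -0.43 (5.4e-05) in the same order.

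Estimated changes of the 3 immunoproteasome subunits with halofuginone were small and differed in sign. None passed the test with halofuginone in Rosa26 cells (0 at an unadjusted p under 0.05), 1 fell in Atf4 KO cells and 2 fell in Cebpg KO cells. By comparison 24.1%, 26.5% and 28.0% of all genes fell in Rosa26, Atf4 KO and Cebpg KO cells. Psmb8, the chymotrypsin-like subunit of the immunoproteasome, had 535, 591 and 481 CPM in Rosa26 cells with halofuginone, against 596, 619 and 588 CPM untreated. Atf4 KO cells had 382, 364 and 494 CPM with halofuginone, against 496, 467 and 469.6 CPM untreated. Cebpg KO cells had 393, 413 and 475 CPM with halofuginone, against 508, 501 and 524 CPM untreated. The libraries overlapped in Rosa26 and Atf4 KO cells and were separate in Cebpg KO cells. Log2 fold changes were -0.17 ± 0.0969 (adjusted p = 0.173) in Rosa26, -0.21 ± 0.0972 (0.085) in Atf4 KO and -0.26 ± 0.0972 (0.031) in Cebpg KO cells. The call in Cebpg KO cells was lost without untreated replicate 1 (0.0633), 2 (0.053) or 3 (0.0876) or treated replicate 1 (0.137) or 2 (0.0733). Psmb8 passed without the 3 libraries lowest in TEC counts in Rosa26 cells too, at -0.20 (adjusted p = 0.000376), and in Atf4 KO cells, at -0.32 (2.11e-07).

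Psmb9, the caspase-like replacement whose gene lies head to head with Tap1, passed in neither direction. In Rosa26 cells it had 218, 226 and 185 CPM with halofuginone, against 194, 211 and 208 CPM untreated. It had 167, 173 and 217 CPM in Atf4 KO cells with halofuginone, against 163, 159 and 172 CPM untreated. It had 171, 192 and 211 CPM in Cebpg KO cells with halofuginone, against 171, 171 and 168 CPM untreated. Values with halofuginone were spread around the untreated ones in Rosa26 cells and mostly above them in the knockouts. The log2 fold changes of 0.04 ± 0.0921, 0.17 ± 0.0928 and 0.17 ± 0.0927 in Rosa26, Atf4 KO and Cebpg KO cells passed in none (adjusted p = 0.769, 0.136 and 0.147).

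Psmb10, the trypsin-like replacement, had 128, 149 and 117 CPM in Rosa26 cells with halofuginone, against 132, 142 and 137 CPM untreated. Levels in Atf4 KO cells were 85.1, 86.01 and 110.2 CPM with halofuginone, against 111, 107 and 123 CPM untreated. Levels in Cebpg KO cells were 90.8, 98.6 and 106 CPM with halofuginone, against 120.5, 123 and 129.6 CPM untreated. The treated group was separate from the untreated one in Cebpg KO cells alone. Log2 fold changes were -0.06 ± 0.0948 in Rosa26 (adjusted p = 0.634), -0.28 ± 0.0962 in Atf4 KO (0.0222) and -0.34 ± 0.09602 in Cebpg KO cells (0.00609). The Atf4 KO call was lost without untreated replicate 3 (0.105) or treated replicate 1 (0.113) or 2 (0.0966). Whether Psmb10 responded differently between genotypes was tested: the interaction was -0.22 ± 0.135 for Atf4 KO (adjusted p = 0.411) and -0.28 ± 0.135 for Cebpg KO (0.381). The Atf4 KO interaction without the 3 libraries lowest in TEC counts was -0.25 (adjusted p = 0.0289).

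**Figure D3:**
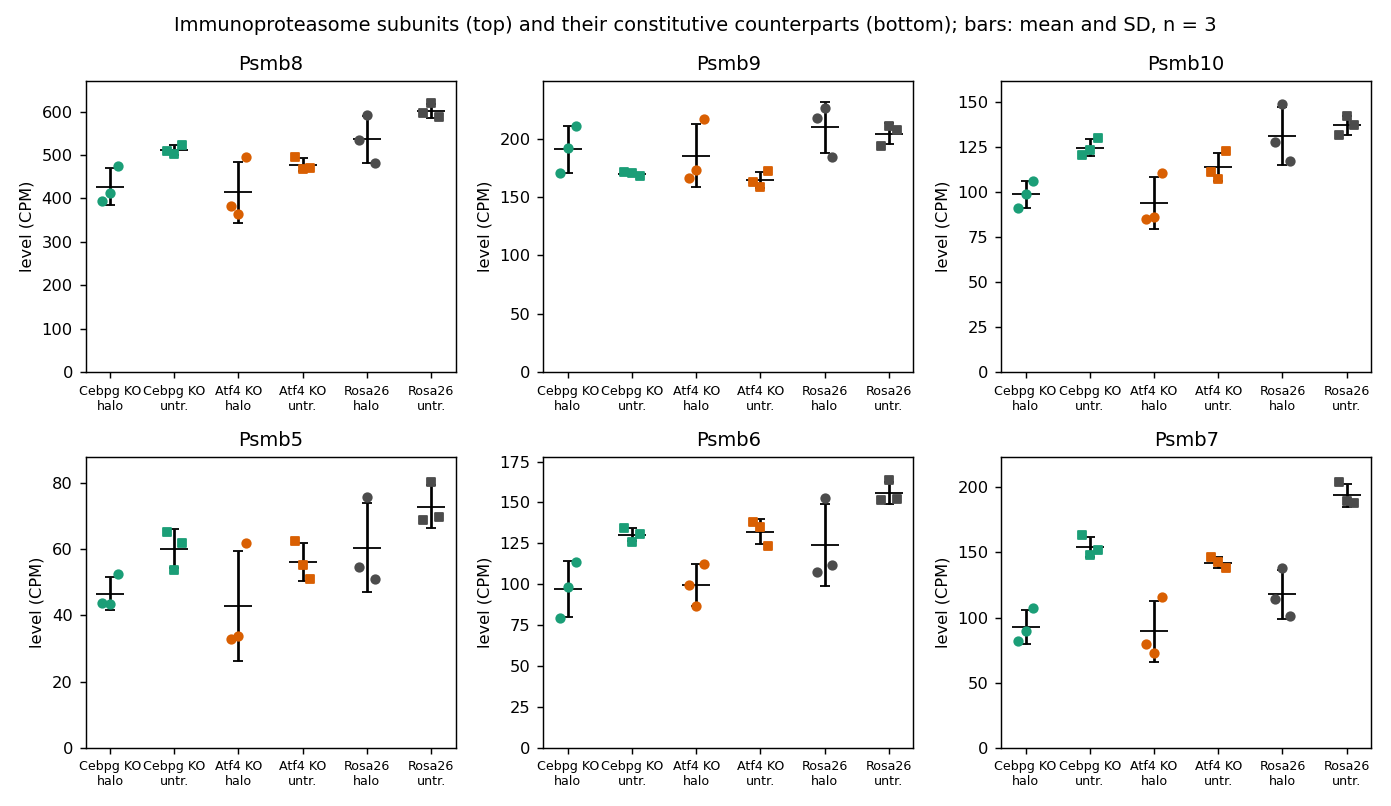
Each panel gives the level of 1 beta subunit gene (CPM) in the 18 libraries by group, with the mean and SD of 3 libraries as bars. In the lower row Psmb7 is lower in every treated library than in any untreated library of the same genotype. Psmb5 and Psmb6 in the lower row, like Psmb8, Psmb9 and Psmb10 in the upper row, overlap between treated and untreated Rosa26 libraries.

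Set beside each other per exon length, the ratio of the immunoproteasome subunit to its constitutive counterpart was higher in every treated library than in any untreated one of its genotype in 2 of the 3 pairs. The ratio of Psmb10 to Psmb7 was 2.16 to 2.32 in Rosa26 cells with halofuginone, against 1.29 to 1.505 untreated. In Atf4 KO cells it was 1.91 to 2.38 with halofuginone, against 1.51 to 1.78 untreated, and in Cebpg KO cells it was 1.99 to 2.23 with halofuginone, against 1.48 to 1.72 untreated. The treated and untreated ratios did not overlap in any genotype. The log2 ratio averaged 1.16 ± 0.0505 in Rosa26 with halofuginone and 0.50 ± 0.116 untreated (SD, n = 3 each). The ratio of Psmb9 to Psmb6 was 0.759 to 1.04 in Rosa26 cells with halofuginone, against 0.655 to 0.699 untreated. It was 0.855 to 1.02 in Atf4 KO cells with halofuginone, against 0.603 to 0.713 untreated, and 0.949 to 1.10 in Cebpg KO cells with halofuginone, against 0.653 to 0.694 untreated. Here too the ranges were separate in each genotype. The ratio of Psmb8 to Psmb5 was 2.07 to 2.60 in Rosa26 cells with halofuginone, against 2.05 to 2.31 untreated, and its ranges overlapped in all 3 genotypes. Within 1 genotype, with 3 libraries a group, an exact permutation test cannot go below 0.10, and no test was run on the ratios. They are transcript ratios and depend on the exon lengths used, though the change within a pair does not.

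**Figure D4:**
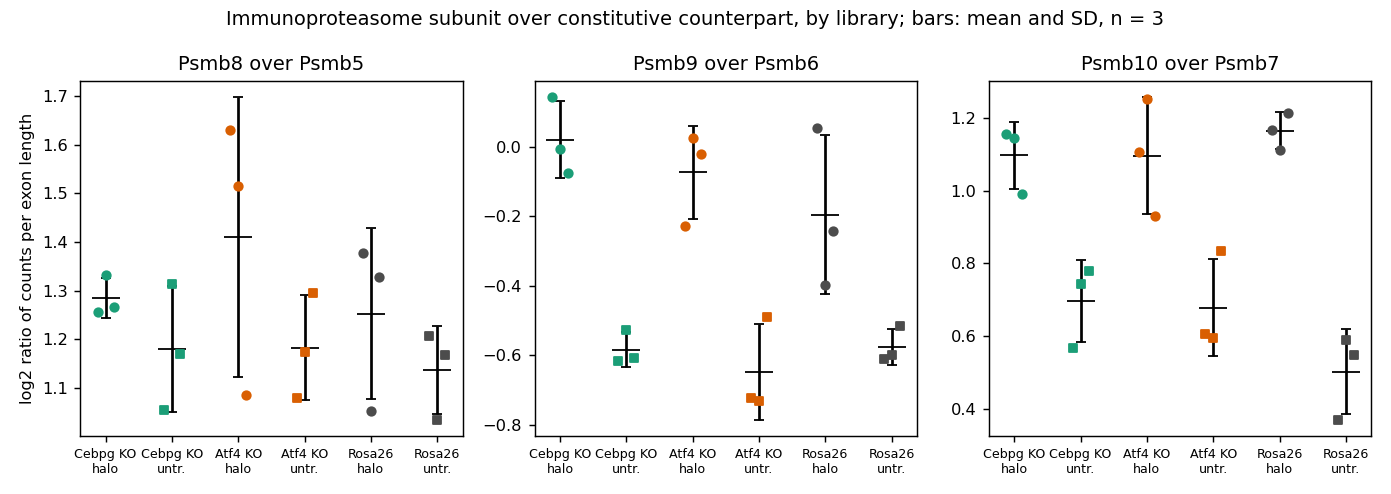
Each panel gives the log2 ratio of an immunoproteasome subunit to its constitutive counterpart, both as counts per exon length, in every library by group, with the mean and SD of 3 libraries as bars. For Psmb10 over Psmb7 the treated Rosa26 libraries average 1.16, above the 0.50 of the untreated ones, and for Psmb8 over Psmb5 the treated and untreated libraries overlap.

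Transcripts of the 19S cap fell with few exceptions. With halofuginone all 6 ATPase genes fell in Rosa26, 5 in Atf4 KO and 6 in Cebpg KO cells. The share of all genes that fell was 24.1%, 26.5% and 28.0% in the same order. Psmc1 had 124, 154 and 121 CPM in Rosa26 cells with halofuginone, against 225, 238 and 230.0 CPM untreated. Levels of Psmc1 in Atf4 KO cells were 85.9, 84.8 and 95.5 CPM with halofuginone, against 163, 159 and 161 CPM untreated. Those in Cebpg KO cells were 91.5, 100.5 and 106 CPM with halofuginone, against 179, 188 and 196 CPM untreated. The gap between treated and untreated libraries exceeded the spread within either group, with log2 fold changes of -0.80 ± 0.07803, -0.86 ± 0.0794 and -0.92 ± 0.0791 in Rosa26, Atf4 KO and Cebpg KO cells (adjusted p at most 5.54e-08). Psmc3 fell by a similar amount: it had 120.0, 148 and 114 CPM in Rosa26 cells with halofuginone, against 226, 237 and 214 CPM untreated. In Atf4 KO cells Psmc3 had 82.98, 77.4 and 108 CPM with halofuginone, against 163, 164 and 158 CPM untreated. In Cebpg KO cells Psmc3 had 84.04, 93.7 and 105 CPM with halofuginone, against 195, 185 and 187 CPM untreated. Its log2 fold changes of -0.83 ± 0.108, -0.86 ± 0.1095 and -1.01 ± 0.109 (adjusted p at most 4.14e-06) lay within 1 standard error of those of Psmc1. Psmc5 was among the 4 lowest members in Atf4 KO cells, with 66.1, 66.8 and 73.03 CPM with halofuginone, against 119, 121 and 125 CPM untreated (-0.83 ± 0.0822, adjusted p = 5.77e-08). The exception was Psmc6 in Atf4 KO cells, at -0.26 ± 0.132 (adjusted p = 0.112, and 3.46e-08 at -0.47 without the 3 libraries lowest in TEC counts).

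Of the 11 other 19S subunits, 9 fell in Rosa26, 9 in Atf4 KO and 10 in Cebpg KO cells. Over all genes 24.1%, 26.5% and 28.0% fell in the same order. Psmd1, a large scaffold of the 19S base, had 150.3, 165 and 143 CPM in Rosa26 cells with halofuginone, against 244, 246 and 234 CPM untreated. Atf4 KO cells had 93.5, 85.8 and 98.1 CPM with halofuginone, against 153, 164 and 161 CPM untreated. Cebpg KO cells had 94.3, 102 and 107 CPM with halofuginone, against 193, 195 and 196 CPM untreated. No libraries overlapped between treated and untreated groups, and the log2 fold changes were -0.66 ± 0.0629, -0.79 ± 0.0642 and -0.94 ± 0.06401 in Rosa26, Atf4 KO and Cebpg KO cells (adjusted p at most 3.97e-08). Psmd13, a subunit of the 19S lid, had 99.9, 115 and 95.3 CPM in Rosa26 cells with halofuginone, against 197, 182 and 184 CPM untreated. For Atf4 KO cells Psmd13 gave 69.6, 71.5 and 93.3 CPM with halofuginone, against 138, 136 and 129 CPM untreated. For Cebpg KO cells it gave 72.2, 76.7 and 89.1 CPM with halofuginone, against 160.3, 149 and 154 CPM untreated. These were again separate, with log2 fold changes of -0.86 ± 0.0967, -0.78 ± 0.0981 and -0.96 ± 0.0982 in the same order (adjusted p at most 1.69e-06). Psmd14, the deubiquitinase of the lid, fell in each genotype, with log2 fold changes of -0.64 ± 0.0763, -0.70 ± 0.0774 and -0.75 ± 0.0774. Psmd4, a ubiquitin receptor, passed in none, at -0.20 ± 0.104, -0.00 ± 0.105 and -0.22 ± 0.105 (lowest adjusted p = 0.0862). It passed without the 3 libraries lowest in TEC counts in Rosa26 cells, at -0.27 (adjusted p = 3.73e-05), and in Cebpg KO cells, at -0.28 (3.75e-05). Psmd11, a lid subunit, fell in Cebpg KO cells alone among the 3 tests, where it had 96.8, 102 and 110.3 CPM with halofuginone, against 119.6, 132 and 126 CPM untreated (-0.29 ± 0.0639, adjusted p = 0.000766).

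Across the 31 subunits of the 26S particle other than the immunoproteasome subunits, 23 fell in Rosa26, 22 in Atf4 KO and 28 in Cebpg KO cells, with 0 higher in each, also at an unadjusted p under 0.05. Their median log2 fold changes were -0.50, -0.47 and -0.61, against -0.06, -0.21 and -0.26 over the 3 immunoproteasome subunits. Over all genes 24.1%, 26.5% and 28.0% fell in Rosa26, Atf4 KO and Cebpg KO cells. Among the 3 chaperones of the 19S base, Psmd9 fell in each genotype, at -0.73 ± 0.0908, -0.60 ± 0.0933 and -0.65 ± 0.0929. Psmd5 passed in none, at -0.22 ± 0.0994, -0.20 ± 0.101 and -0.18 ± 0.101 (lowest adjusted p = 0.0733); without the 3 libraries lowest in TEC counts it passed in each, at -0.30 (0.000215), -0.29 (0.000449) and -0.19 (0.017). Psmd10 passed in Rosa26 cells, at -0.37 ± 0.148 (adjusted p = 0.049), and lost this call without untreated replicate 1 (0.0713) or 2 (0.205) or treated replicate 1 (0.124) or 3 (0.223).

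Of the 4 activators, 1 fell in each genotype, and 1 rose in Atf4 KO cells. The shares of all genes that fell were 24.1%, 26.5% and 28.0% in Rosa26, Atf4 KO and Cebpg KO cells. In Atf4 KO cells 23.1% of all genes rose, so these counts do not set the activators apart from other genes. Psme3, the nuclear activator, fell: it had 252, 265 and 226 CPM in Rosa26 cells with halofuginone, against 378, 364 and 374 CPM untreated. It had 185, 192 and 218 CPM in Atf4 KO cells with halofuginone, against 309, 306 and 302 CPM untreated. It had 208, 204 and 222 CPM in Cebpg KO cells with halofuginone, against 322, 328 and 338 CPM untreated. The groups were well apart, with log2 fold changes of -0.59 ± 0.0649, -0.62 ± 0.0653 and -0.64 ± 0.0652 in Rosa26, Atf4 KO and Cebpg KO cells (adjusted p at most 2.96e-07). Psme1 and Psme2 form the activator that interferon gamma induces. Psme1 had 362, 413 and 337 CPM in Rosa26 cells with halofuginone, against 319.9, 366 and 329 CPM untreated (0.13 ± 0.0872, adjusted p = 0.229). Psme2 had 346, 410.5 and 308 CPM in Rosa26 cells with halofuginone, against 301, 311 and 294 CPM untreated (0.23 ± 0.116, adjusted p = 0.113). Neither passed in any genotype, and the libraries of both overlapped in Rosa26 cells. In the knockouts Psme1 was at -0.15 ± 0.0875 and -0.12 ± 0.0875, and Psme2 at 0.26 ± 0.117 and 0.16 ± 0.117, in Atf4 KO and Cebpg KO cells. Without the 3 libraries lowest in TEC counts Psme1 passed as lower in Atf4 KO (-0.22, adjusted p = 0.000259) and Cebpg KO cells (-0.15, 0.00856), and Psme2 as higher in Rosa26 cells (0.15, 0.00841). Psme2b, the copy of Psme2, had 23.5, 28.6 and 22.1 CPM in Rosa26 cells with halofuginone, against 20.6, 20.99 and 17.5 CPM untreated (0.33 ± 0.109, adjusted p = 0.0176, lost without untreated replicate 3 at 0.1 or treated replicate 2 at 0.124). It had 21.00, 25.5 and 23.03 CPM in Atf4 KO cells with halofuginone, against 16.1, 16.3 and 16.9 CPM untreated (0.50 ± 0.112, adjusted p = 0.000929). Psme2b is thus among the few members that rose, with the caution on shared reads given above.

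Psme4, the activator implicated in histone degradation, had 122, 126 and 119 CPM in Atf4 KO cells with halofuginone, against 109, 108 and 110.3 CPM untreated. This rise of 0.16 ± 0.0467 (adjusted p = 0.00611) was small but separate, and Psme4 varied little within groups. In Rosa26 and Cebpg KO cells Psme4 was at 0.10 ± 0.0467 and 0.10 ± 0.0468 and did not pass (adjusted p = 0.0808 and 0.0835); without the 3 libraries lowest in TEC counts both passed, at 0.14 (0.0182) and 0.15 (0.0132). The inhibitor gene Psmf1 had 41.5, 50.2 and 39.5 CPM in Rosa26 cells with halofuginone, against 52.4, 56.6 and 48.5 CPM untreated. For Psmf1 Atf4 KO cells had 46.8, 44.1 and 48.7 CPM with halofuginone, against 51.8, 55.7 and 53.3 CPM untreated. For Psmf1 Cebpg KO cells had 44.5, 42.2 and 44.5 CPM with halofuginone, against 50.9, 51.1 and 56.2 CPM untreated. Psmf1 fell slightly in each genotype, at -0.26 ± 0.0826 (adjusted p = 0.0126), -0.20 ± 0.0827 (0.048) and -0.27 ± 0.0831 (0.0105), and the libraries overlapped in Rosa26 cells. The Rosa26 call was lost without untreated replicate 2 (0.0827) or treated replicate 1 (0.0616) or 3 (0.0799). The Atf4 KO call was lost without any 1 of its 6 libraries (adjusted p from 0.058 to 0.149), and the Cebpg KO call without untreated replicate 3 (0.0582).

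Of the 4 core assembly chaperones, Psmg1 fell in each genotype. It had 32.1, 42.4 and 29.3 CPM in Rosa26 cells with halofuginone, against 53.3, 53.7 and 53.6 CPM untreated, a log2 change of -0.63 ± 0.159 (adjusted p = 0.00313). In Atf4 KO and Cebpg KO cells Psmg1 changed by -0.75 ± 0.163 and -0.63 ± 0.164 (adjusted p = 0.000931 and 0.00351). The response of its partner Psmg2 differed between Atf4 KO and Rosa26 cells by the interaction test given below. Psmg2 had 51.6, 53.7 and 48.6 CPM in Rosa26 cells with halofuginone, against 49.5, 50.1 and 53.3 CPM untreated. Atf4 KO cells had 34.5, 34.5 and 41.9 CPM of Psmg2 with halofuginone, against 49.4, 48.6 and 49.4 CPM untreated. Cebpg KO cells had 39.2, 38.4 and 43.1 CPM of Psmg2 with halofuginone, against 50.9, 49.6 and 49.5 CPM untreated. Treated knockout libraries all lay below the untreated ones, whereas the Rosa26 groups overlapped. The changes were 0.01 ± 0.0738 in Rosa26 (adjusted p = 0.932), -0.41 ± 0.0755 in Atf4 KO (0.000133) and -0.32 ± 0.0752 in Cebpg KO cells (0.00149). Psmg4 rose in Rosa26 cells, with 39.4, 52.5 and 38.9 CPM with halofuginone, against 28.4, 35.6 and 33.3 CPM untreated (0.42 ± 0.1497, adjusted p = 0.0269). This call was lost without untreated replicate 1 (0.118) or 3 (0.0514) or treated replicate 2 (0.121).

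The 2 genes named after a partner subunit differed from each other: Psmc3ip fell in all 3 genotypes, and Psme3ip1 rose in Atf4 KO cells. Psmc3ip, which encodes a partner of the recombinases that pair homologous chromosomes, had 10.99, 11.4 and 9.96 CPM in Rosa26 cells with halofuginone, against 20.7, 19.6 and 18.1 CPM untreated. Its level in Atf4 KO cells was 5.16, 3.93 and 9.07 CPM with halofuginone, against 14.3, 12.8 and 14.04 CPM untreated. Its level in Cebpg KO cells was 8.14, 7.21 and 7.501 CPM with halofuginone, against 19.9, 16.5 and 17.96 CPM untreated. Its counts were low but the groups were separate, and its log2 fold changes of -0.85 ± 0.173, -1.17 ± 0.187 and -1.25 ± 0.181 included the lowest of the 49 in both knockouts (adjusted p at most 0.000414). Psme3ip1, which encodes a binding partner of Psme3, had 60.2, 64.1 and 68.3 CPM in Atf4 KO cells with halofuginone, against 55.5, 57.8 and 50.6 CPM untreated (0.23 ± 0.0809, adjusted p = 0.0222). That call was lost without untreated replicate 3 (0.111).

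Loss of Atf4 went with lower proteasome transcripts even without the drug. In untreated cells 32 of 49 members were lower and 0 higher in Atf4 KO than in Rosa26 (also 0 higher at an unadjusted p under 0.05), where 14.3% of all genes were lower and 11.7% higher. Their median log2 difference was -0.36, against 0.02 over all genes. Over all genes the split was 1720 higher and 2107 lower, and upper-quartile scaling turned it to 2330 higher and 1713 lower with 30 members lower. With a term for TEC share the members' median was -0.21 and 29 were lower. The lower members comprised 5 of 7 alpha subunits, 3 of 7 constitutive beta subunits, all 3 immunoproteasome subunits, 5 of 6 ATPases, 10 of 11 other 19S subunits and 2 of 4 activators. Psmd1, with the library values given above, had the lowest fold change at -0.60 ± 0.0629 (adjusted p = 1.91e-06), and Psma5 was at -0.58 ± 0.0868 (6.64e-05). Psmd10 had 18.2, 19.1 and 16.8 CPM in untreated Atf4 KO cells, against 25.8, 30.1 and 24.7 CPM in untreated Rosa26 cells (-0.57 ± 0.1502, adjusted p = 0.00857, and 0.051 without Rosa26 replicate 2). Psmg3 had 9.37, 9.23 and 7.42 CPM in untreated Atf4 KO cells, against 13.9, 12.9 and 12.5 CPM in untreated Rosa26 cells (-0.59 ± 0.158, adjusted p = 0.00955, and 0.0574 without Atf4 KO replicate 3). These were low-count members whose groups did not overlap.

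The immunoproteasome subunits were lower, at -0.33 ± 0.0971 for Psmb8 (adjusted p = 0.0161), -0.31 ± 0.0926 for Psmb9 (0.0185) and -0.27 ± 0.0953 for Psmb10 (0.0444) in untreated Atf4 KO against Rosa26 cells. All 3 had separate groups, and each call was lost on leaving out single libraries. Psmb8 lost it without Rosa26 replicate 2 (0.0635) or Atf4 KO replicate 2 (0.0578) or 3 (0.0574). Psmb9 lost it without Rosa26 replicate 2 (0.0739) or 3 (0.0553) or Atf4 KO replicate 1 (0.0561) or 2 (0.0716). Psmb10 lost it without Rosa26 replicate 1 (0.0652), 2 (0.145) or 3 (0.0919) or Atf4 KO replicate 1 (0.117) or 2 (0.154). Among the constitutive counterparts Psmb7 was lower, at -0.45 ± 0.142 (adjusted p = 0.0295), a call lost without any 1 of the 6 libraries (0.0524 to 0.0904), and Psmb5 and Psmb6 did not pass, at -0.38 ± 0.203 and -0.24 ± 0.129. Among the smallest called differences were -0.20 ± 0.0635 for Psmd11 (adjusted p = 0.0256) and -0.29 ± 0.0647 for Psme3 (0.00297). Psmd11 had 116, 118 and 115 CPM in untreated Atf4 KO cells, against 138, 136 and 126 CPM in untreated Rosa26 cells, which were separate. Its call was lost without Rosa26 replicate 1 (0.099) or 2 (0.092) or Atf4 KO replicate 1 (0.0699), 2 (0.0509) or 3 (0.0785).

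In untreated Cebpg KO cells 5 members were lower than in Rosa26 and 0 higher (0 also at an unadjusted p under 0.05), where 2.29% of all genes were lower and 2.71% higher. The members' median difference was -0.25, against 0.01 over all genes, and 28 members were lower at an unadjusted p under 0.05. The 5 were Psmd10 (-0.53 ± 0.1497, adjusted p = 0.0449), Psma5 (-0.31 ± 0.0863, 0.04), Psmd1 (-0.31 ± 0.0625, 0.00819), Psmc1 (-0.30 ± 0.0773, 0.0297) and Psmc2 (-0.28 ± 0.0724, 0.0311). Psmc2, an ATPase, had 112, 116 and 118 CPM in untreated Cebpg KO cells, against 137, 146 and 138 CPM in untreated Rosa26 cells. Psmd10 had 18.2, 18.7 and 18.7 CPM in untreated Cebpg KO cells, against the Rosa26 values given above. The groups of all 5 were separate, yet Psma5, Psmc1, Psmc2 and Psmd10 lost their calls without any 1 of the 6 libraries. Their adjusted p then ran from 0.0794 to 0.145, from 0.0586 to 0.118, from 0.0682 to 0.134 and from 0.0699 to 0.18 in that order. Psmd1 stayed called, and the count of called members was 1 in each of these 6 fits. The count also depended on the fit: DESeq2 called 26 members and a fit of the 6 libraries alone called 39. Over all genes relative log expression scaling turned the split of 398 higher and 337 lower to 402 and 1134. With a term for TEC share the members' median was -0.09.

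With halofuginone present, 28 of 49 members were lower in Atf4 KO and 28 in Cebpg KO than in Rosa26, with 0 higher in both (0 also at an unadjusted p under 0.05). Of all genes, 16.3% were lower and 11.8% higher in Atf4 KO, and 13.1% were lower and 5.74% higher in Cebpg KO cells. Medians over the members were -0.38 in Atf4 KO and -0.35 in Cebpg KO cells, against 0.00 and -0.02 over all genes. Over all genes in Cebpg KO the split of 844 higher and 1929 lower became 1543 and 1500 with upper-quartile scaling, under which 26 members were lower. In Atf4 KO that scaling turned 1731 higher and 2397 lower to 2372 and 2171, with 29 members lower. With a term for TEC share the members' median was -0.32 in Atf4 KO and -0.19 in Cebpg KO cells, and 39 and 29 members were lower. These comparisons share the Rosa26 libraries, so they are not independent of each other, and all knockout comparisons share libraries with the drug comparisons. Without the 3 libraries lowest in TEC counts 44 members were lower in Atf4 KO and 40 in Cebpg KO. The count in Atf4 KO was 45 without its replicate 3 and 20 without its replicate 2, and the count in Cebpg KO was 14 without its replicate 1. A fit of the 6 libraries alone called 15 members in Atf4 KO.

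Psma5 and Psmd1 were again among the lowest, with library values as given above. In Atf4 KO cells with halofuginone Psma5 was lower than in Rosa26, at -0.74 ± 0.0883 (adjusted p = 2.87e-06), Psmd1 at -0.72 ± 0.0641 (6.59e-08), Psmb2 at -0.60 ± 0.0791 (9.87e-06) and Psmc3ip at -0.83 ± 0.189 (0.00243). In Cebpg KO cells with halofuginone the same measures were -0.63 ± 0.0881 for Psma5 (4.95e-05), -0.59 ± 0.0639 for Psmd1 (2.57e-06) and -0.50 ± 0.07900 for Psmb2 (0.000164). Psma7 was lower there, at -0.48 ± 0.133 (0.0172), lost without Rosa26 replicate 2 (0.0671) or Cebpg KO replicate 1 (0.0918). Of the immunoproteasome subunits, Psmb8 was lower, at -0.37 ± 0.0972 in Atf4 KO (0.00627) and -0.33 ± 0.0972 in Cebpg KO (0.0221), and Psmb10 at -0.48 ± 0.0959 (0.000702) and -0.41 ± 0.0959 (0.00462). Psmb9 did not pass, at -0.18 ± 0.0923 and -0.14 ± 0.0924; without the 3 libraries lowest in TEC counts it passed in Atf4 KO, at -0.24 (0.0025). The Psmb8 call in Cebpg KO was lost without Rosa26 replicate 2 (0.0596) or Cebpg KO replicate 1 (0.118) or 2 (0.0514). Psme1 was lower in this culture, at -0.38 ± 0.0874 in Atf4 KO (0.00265) and -0.35 ± 0.0875 in Cebpg KO (0.00787). Psmb5, Psmb6 and Psmb7 passed in neither knockout, with values from -0.49 for Psmb5 to -0.31 for Psmb6, both in Atf4 KO. Without the 3 libraries lowest in TEC counts all 3 passed as lower in both knockouts, with adjusted p at most 0.0388 for Psmb6 in Atf4 KO.

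The smallest called differences with halofuginone included those of Psmd11, Psme3, Psma6 and Psmd3. Psmd11 was lower in both knockouts, at -0.21 ± 0.0637 in Atf4 KO (adjusted p = 0.0167, and 0.088 without Atf4 KO replicate 2) and -0.28 ± 0.0639 in Cebpg KO cells (0.00384). Psme3 was at -0.32 ± 0.0652 in Atf4 KO (adjusted p = 0.00082) and -0.23 ± 0.0652 in Cebpg KO cells (0.0168, lost without Rosa26 replicate 1 at 0.0521 or Cebpg KO replicate 1 at 0.0667). Psma6, an alpha subunit, had 91.1, 90.8 and 132 CPM in Atf4 KO and 121, 150.3 and 124 CPM in Rosa26 cells with halofuginone. The groups overlapped through Atf4 KO replicate 3, the library low in TEC counts (-0.33 ± 0.114, adjusted p = 0.0374), and the call was lost without Rosa26 replicate 2 (0.0795) or Atf4 KO replicate 1 (0.177) or 2 (0.17). Psmd3, a lid subunit, had 141, 128 and 169 CPM in Atf4 KO, 146, 140.5 and 174 CPM in Cebpg KO and 181, 209 and 168 CPM in Rosa26 cells with halofuginone. Its groups overlapped in both comparisons (-0.35 ± 0.0937, adjusted p = 0.00859, for Atf4 KO and -0.27 ± 0.0936, 0.0471, for Cebpg KO). The Atf4 KO call was lost without Atf4 KO replicate 2 (0.0522). The Cebpg KO call was lost without Rosa26 replicate 1 (0.0712) or 2 (0.162) or Cebpg KO replicate 1 (0.168) or 2 (0.155).

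Between the knockouts few members passed the test. In untreated cells 1 member, Psmd1, was higher in Cebpg KO than in Atf4 KO (0.29 ± 0.0629, adjusted p = 0.0153) and 0 were lower, where 3.32% of all genes differed, 2.01% higher and 1.31% lower. The Psmd1 call was lost without Atf4 KO replicate 1 (0.0937) or 3 (0.0533) or Cebpg KO replicate 2 (0.0682) or 3 (0.0716). At an unadjusted p under 0.05, 9 were higher and 0 lower, and DESeq2 called 5. With halofuginone 0 members differed at the adjusted threshold, where 1.00% of all genes did (0.538% higher and 0.463% lower); 1 was lower at an unadjusted p under 0.05, DESeq2 called 0, and without the 3 libraries lowest in TEC counts 4 were higher and 1 lower. The members' median difference was 0.11 untreated and 0.03 with halofuginone, against 0.00 and -0.01 over all genes.

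Whether the drug response itself differed by genotype was tested as an interaction. Against Rosa26, the response of 1 member differed in Atf4 KO, where that of 6.42% of all genes did (2.41% higher and 4.01% lower). It was 0 members in Cebpg KO, where 2.47% of all genes did (0.374% higher and 2.10% lower). At an unadjusted p under 0.05, 2 members were lower in the Atf4 KO interaction and 5 in that of Cebpg KO, and DESeq2 called 1 and 0. The member was Psmg2, whose response was lower in Atf4 KO, with an interaction of -0.42 ± 0.106 (adjusted p = 0.0213). This was lost without untreated Rosa26 replicate 1 (0.0559) or treated Atf4 KO replicate 1 (0.0621). For Cebpg KO the same difference for Psmg2 was -0.32 ± 0.105 (adjusted p = 0.129, and 0.0214 without the 3 libraries lowest in TEC counts). Between the knockouts 0 members differed in response (1 at an unadjusted p under 0.05, 0 by DESeq2), where 0.0136% of all genes did (0.00681% in each direction). Fits with a term for TEC share called 12 members in the Atf4 KO interaction and 11 in that of Cebpg KO, all lower, and leaving out those 3 libraries gave 5 and 5, all lower. Over all genes relative log expression scaling turned the split of 354 higher and 589 lower in the Atf4 KO interaction to 705 and 489. It turned that of 55 higher and 308 lower in the Cebpg KO interaction to 154 and 224, and upper-quartile scaling turned it to 150 and 303. The larger number of falls in Cebpg KO cells is therefore not shown to differ from that in Rosa26 cells in the fit reported here.

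Lists of genes around the proteasome differed in how many of their genes fell or rose with halofuginone. Among all genes, 24.1%, 26.5% and 28.0% fell and 23.6%, 23.1% and 23.1% rose in Rosa26, Atf4 KO and Cebpg KO cells. The medians over all genes were 0.02, -0.04 and -0.03 in that order. Of 13 measured partners and assembly factors, 8 fell and 1 rose in Rosa26, 7 fell and 2 rose in Atf4 KO, and 9 fell and 2 rose in Cebpg KO cells, with medians of -0.27, -0.20 and -0.27. Pomp, which helps build the core and matures the immunoproteasome, fell in each genotype, at -0.50 ± 0.08301, -0.52 ± 0.0847 and -0.70 ± 0.0845 in Rosa26, Atf4 KO and Cebpg KO cells. It had 99.2, 110.1 and 89.6 CPM in Rosa26 cells with halofuginone, against 133, 147 and 141 CPM untreated, and these did not overlap. Usp14, a deubiquitinase bound to the 19S cap, changed by -0.63, -0.80 and -0.83, and Uchl5, another, by -0.63, -0.53 and -0.56, and all of these passed. Adrm1, the ubiquitin receptor that holds Uchl5, was at -0.38 in Rosa26 (adjusted p = 0.00168), -0.13 in Atf4 KO (0.248) and -0.29 in Cebpg KO cells (0.0124, lost without untreated replicate 3 at 0.0575 or treated replicate 1 at 0.0723). Ubxn7, an adaptor of the segregase Vcp, rose by 0.65, 0.80 and 0.76. Of 15 genes of ubiquitin supply and shuttling, 9, 8 and 10 fell and 0 rose in Rosa26, Atf4 KO and Cebpg KO cells, with Vcp at -0.65, -0.75 and -0.91; 0 rose at an unadjusted p under 0.05 either, and the list's medians were -0.25, -0.21 and -0.36.

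Nfe2l1, the transcription factor that raises proteasome genes when proteasome activity falls short, rose, while most subunit genes fell. It had 176, 199 and 179 CPM in Rosa26 cells with halofuginone, against 89.5, 84.9 and 81.4 CPM untreated. Atf4 KO cells had 116, 114 and 133 CPM of it with halofuginone, against 86.3, 81.5 and 88.4 CPM untreated. Cebpg KO cells had 107, 111 and 123 CPM of it with halofuginone, against 86.02, 92.5 and 89.1 CPM untreated. Treated libraries were above untreated ones in every genotype, and the rise was 1.11 ± 0.0715 in Rosa26, 0.50 ± 0.0717 in Atf4 KO and 0.35 ± 0.0717 in Cebpg KO cells. The rise was smaller in both knockouts: the interaction was -0.61 ± 0.101 for Atf4 KO (adjusted p = 0.0011) and -0.76 ± 0.101 for Cebpg KO (0.000169). These are transcript levels, and Nfe2l1 is known to be controlled largely as a protein. Of the 9 regulators listed, 4 rose and 2 fell in Rosa26, 5 rose and 1 fell in Atf4 KO, and 5 rose and 3 fell in Cebpg KO cells, with medians of 0.12, 0.31 and 0.23. Among all genes, 23.6%, 23.1% and 23.1% rose and 24.1%, 26.5% and 28.0% fell in the same order. These counts and medians include Nrf1, nuclear respiratory factor, which is not the Nfe2l1 product of the same nickname.

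Most listed regulators of the immunoproteasome rose. Of 11 regulators of the immunoproteasome, mostly of the interferon pathways, 9 rose and 1 fell with halofuginone in each genotype, with medians of 0.73 in Rosa26, 0.56 in Atf4 KO and 0.69 in Cebpg KO cells. Among all genes, 23.6%, 23.1% and 23.1% rose and 24.1%, 26.5% and 28.0% fell in the same order. Irf1, a transcription factor that interferon gamma induces, rose by 1.29 ± 0.123, 1.39 ± 0.124 and 1.48 ± 0.124. The receptor chain Ifngr1 rose by 1.70, 1.74 and 1.80. Nlrc5, the transactivator of class I genes, rose by 0.73 ± 0.136, 0.42 ± 0.135 and 0.56 ± 0.135, and its Atf4 KO call (adjusted p = 0.0147) was lost without untreated replicate 1 (0.0586) or 2 (0.0555) or treated replicate 2 (0.101). Of 13 genes of class I peptide supply, 8 rose and 4 fell in Rosa26, 6 rose and 4 fell in Atf4 KO, and 7 rose and 4 fell in Cebpg KO cells, with medians of 0.31, 0.21 and 0.33. Tap1, the peptide transporter subunit beside Psmb9, rose by 0.67 ± 0.07603, 0.89 ± 0.0763 and 0.79 ± 0.0762, and Tap2 by 0.61 ± 0.0605, 0.65 ± 0.0604 and 0.65 ± 0.0605. Those that fell included the ER chaperones Calr, at -0.77, -1.17 and -1.29, and Canx, at -0.60, -0.66 and -0.80. The sum of the 4 measured genes of the NK-cell list, which lacked Ncr1 and Klrb1c, moved with the drug as given above. Its part in these rises was not tested.

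**Figure D5:**
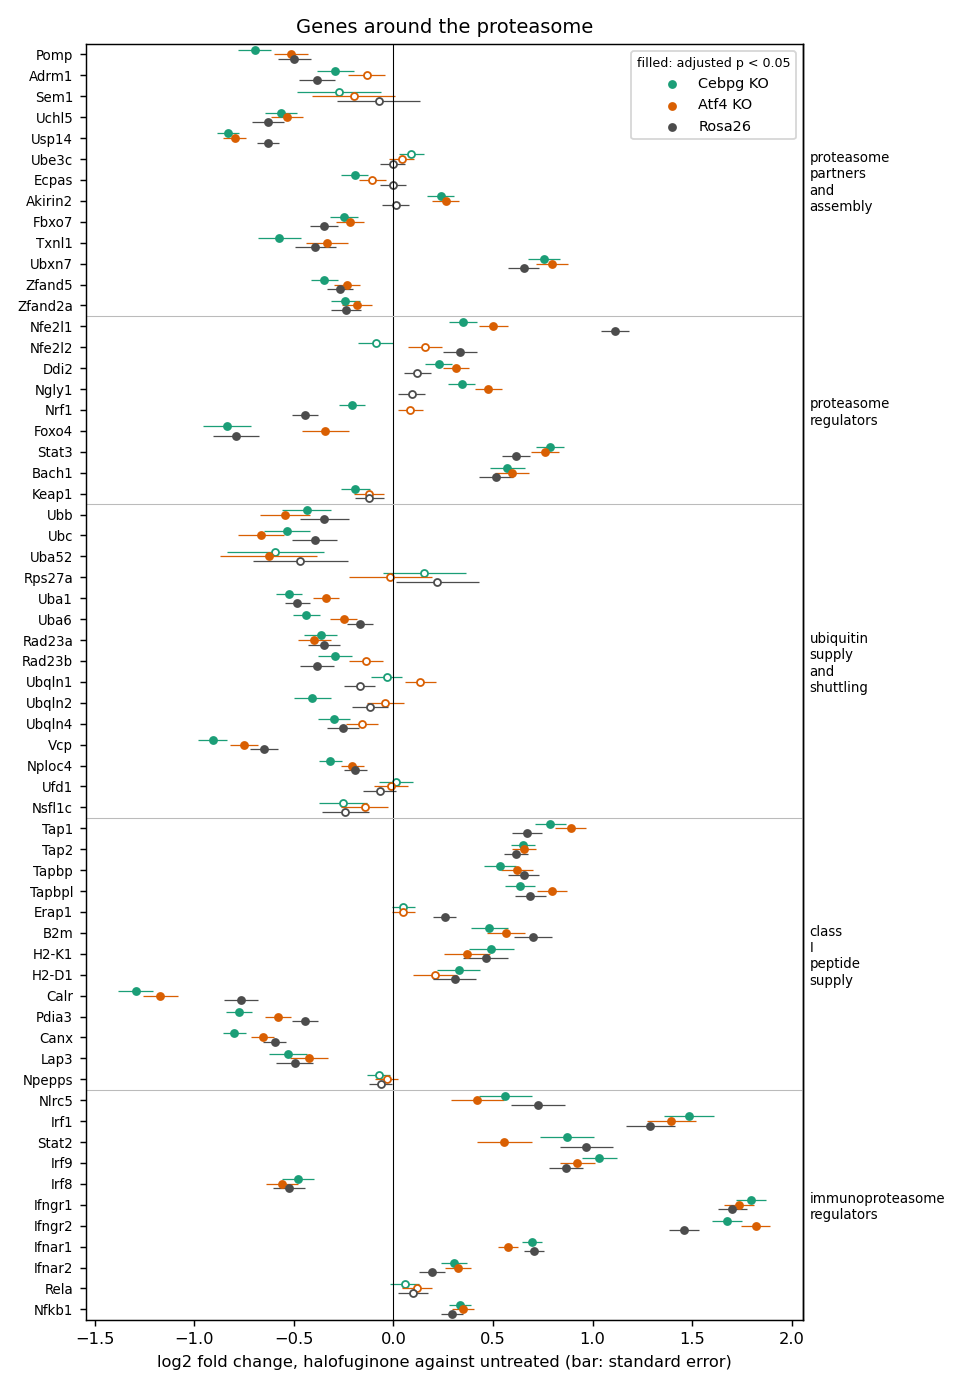
Points are log2 fold changes with halofuginone against untreated for the genes of 5 lists around the proteasome, with standard errors as bars, for Cebpg KO, Atf4 KO and Rosa26 cells; filled points passed an adjusted p of 0.05. Nfe2l1 stands at 1.11 in Rosa26 and nearer 0 in both knockouts, and most immunoproteasome regulators lie above 0.

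Some genes of these lists also differed between the knockouts and Rosa26. Pomp was lower in Atf4 KO cells both with halofuginone (-0.49 ± 0.0846, adjusted p = 0.000161) and untreated (-0.48 ± 0.0831, 0.000328). Pomp was also lower in Cebpg KO cells with halofuginone (-0.43 ± 0.0846, adjusted p = 0.00121) and did not pass untreated (-0.23 ± 0.0826, 0.102). Nfe2l1 was lower in Atf4 KO (-0.61 ± 0.0705, adjusted p = 2.00e-06) and Cebpg KO cells (-0.70 ± 0.0707, 1.29e-06) with halofuginone, and passed in neither untreated (adjusted p = 0.988 and 0.6). Of the 15 ubiquitin genes, 7 were lower in Atf4 KO and 6 in Cebpg KO cells with halofuginone, and 6 in Atf4 KO and 0 in Cebpg KO cells untreated (6 there at an unadjusted p under 0.05). Of the 11 immunoproteasome regulators, 4 were higher in each knockout with halofuginone, with 2 lower in Atf4 KO and 1 in Cebpg KO cells. Among all genes with halofuginone, 16.3% were lower and 11.8% higher in Atf4 KO, and 13.1% were lower and 5.74% higher in Cebpg KO cells. Untreated, 14.3% of all genes were lower in Atf4 KO and 2.29% in Cebpg KO cells. Irf1 was at 0.02 in Atf4 KO and 0.17 in Cebpg KO cells with halofuginone and passed in neither.

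Psmb9 and Tap1 are transcribed away from each other from starts 226 bp apart, and the window of 300 bases around the Psmb9 start (250 before, 50 after) overlaps that of Tap1 on the other strand by 275 bases. With halofuginone in Rosa26 cells Tap1 rose by 0.67 and Psmb9 was at 0.04. RefSeq windows were found for 42 of the 49 genes, in 46 windows because some genes have 2 starts. Searched on both strands, the antioxidant response core TGACNNNGC was in 6 of the 46 windows (13%), in Psmb5, Psmb6, Psmc6, Psmd9, Psmd12 and Psme4, against 12.4% of all 32851 RefSeq windows of this length. The interferon-stimulated response element, taken as a pair of GAAA runs 2 bases apart, was in 5 (10.9%, against 3.44%), in Psmb3, Psmd4, Psmd9, Psme1 and Psmg4. The gamma-activated site TTCNNNGAA was in 3 (6.52%, against 8.30%), in Psmb8, Psmd2 and Psmg1, and the CCAAT box was in 15 (32.6%, against 37.4%). The composite site of C/EBP and ATF factors, TGATGNAA, was in 1 (2.17%, against 3.97%), that of Psmd13. These matches describe letters in the windows and not binding, and no test was run on them.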

How the data were processed

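The authors deposited 1 table of unnormalized read counts for each gene; per the submitters' processing notes FastQC, MultiQC, Trimmomatic, STAR, HTSeq and edgeR were used with build GRCm39. Versions, settings, the annotation and the strand setting were not given in the sources that were used, so genes overlapping on opposite strands are uncertain. The members and lists were chosen with earlier results of these data known. Some listed genes are not reported here and were left out of the lists, their counts and medians. All 18 libraries entered 1 fit of 6 groups with 12 residual degrees of freedom (edgeR 4.0.16 quasi-likelihood test, TMM factors, R 4.3.3, limma 3.58.1), with Benjamini-Hochberg adjustment over all 14695 genes. Every group shares 1 estimate of spread, and untreated groups were tighter than halofuginone groups. Standard errors are the log2 fold change divided by the square root of F. CPM uses TMM factors. Exon lengths are those of exon unions in a GRCm38 annotation, used for lengths only. Blank names (449) were filled from it for 431 genes, none of them a member. The script was tested on simulated data. Members named with library values were the catalytic subunits and their counterparts, the 4 highest and 4 lowest called members of a comparison and at least 1 of each class; others were named for their role, after their values were seen.

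Same-numbered libraries deviated together for Cebpg KO against Atf4 KO with halofuginone (correlations 0.25, 0.25 and 0.53). A pairing by number there would rest on the data alone, and not every library correlated best with its own number. The reported fit used no pairing. The replicate block held terms shared by all 6 groups, so it does not model a pairing of these 2 groups alone. Replicate 3 was the library lowest in TEC counts in both of these groups. For Atf4 KO against Rosa26 with halofuginone the correlations were 0.36, -0.69 and -0.64. For Cebpg KO against Atf4 KO with halofuginone the replicate block called 0 members, as did the fit without it. No 2 libraries agreed within sampling noise. Alternatives were other scaling factors (relative log expression, upper quartile), a filter of 50 counts in 3 libraries, a replicate block and fits of the compared groups alone. Others were DESeq2 1.42.0 on the deposited counts, leaving out each library and leaving out the 3 halofuginone libraries lowest in TEC counts. Those 3 libraries were picked by their TEC share in these data. A term for TEC share was a further alternative, chosen after seeing the data.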

Additional observations from a re-analysis of the deposited data

Results flagged for a closer look

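In 7 results the response to halofuginone differed between a knockout and Rosa26 by the interaction test in edgeR. Psmg2, the core assembly chaperone, responded lower in Atf4 KO, with an interaction of -0.42 ± 0.106 (adjusted p = 0.0213). Nfe2l1, the factor that raises proteasome genes, rose less in Atf4 KO (-0.61 ± 0.101, adjusted p = 0.0011) and in Cebpg KO (-0.76 ± 0.101, 0.000169), and no single library ended either call. Ngly1, the enzyme that deglycosylates the Nfe2l1 protein, responded higher in Atf4 KO by 0.38 ± 0.0958 (0.0199), with changes of 0.48 in Atf4 KO and 0.09 in Rosa26 cells. This was lost without untreated Rosa26 replicate 2 (0.0602), treated Rosa26 replicate 1 (0.054) or untreated Atf4 KO replicate 3 (0.0569). Nrf1, nuclear respiratory factor and not the Nfe2l1 product of the same nickname, responded higher in Atf4 KO by 0.53 ± 0.0902 (0.00131), with 0.09 in Atf4 KO and -0.44 in Rosa26 cells. Ifngr2 rose more in Atf4 KO by 0.36 ± 0.105 (0.0445), with 1.82 in Atf4 KO and 1.46 in Rosa26 cells. It was lost without untreated Rosa26 replicate 1 (0.12) or 2 (0.0838), treated Rosa26 replicate 1 (0.102) or 3 (0.109), or untreated Atf4 KO replicate 1 (0.0941) or 3 (0.113). Calr fell more in Cebpg KO, with an interaction of -0.53 ± 0.121 (0.0223), with -1.29 in Cebpg KO and -0.77 in Rosa26 cells. It was lost without untreated Rosa26 replicate 1 (0.0637), 2 (0.0505) or 3 (0.0531) or untreated Cebpg KO replicate 2 (0.0523) or 3 (0.0651). The 3 libraries of each group were too few for a search for single outlying libraries.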

How the results depend on the processing

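Among single-gene results recomputed under the alternatives, 7036 kept their side of the threshold, 524 lost the call, 105 gained one and 0 called results changed sign. A gene not called in the reported fit entered only if it was Nfe2l1, Pomp, Adrm1, Tap1, Tap2, Irf1, Nlrc5 or any of Psmb5 to Psmb10. Gains could come from these genes alone and losses from every called gene, so the 524 and the 105 are not comparable. Direction was not compared where neither fit called the gene, and such results are counted among the 7036. Counts of called members moved by over 1.5 times as follows, and the cause was not tested. For Cebpg KO against Rosa26 untreated (5), relative log expression scaling gave 17, upper quartile 11, the filter of 50 counts 17, DESeq2 26, the groups compared alone 39 and a TEC term 11; leaving out 1 library gave 1 each time. For Cebpg KO against Atf4 KO untreated (1), upper quartile gave 3, the filter 5, DESeq2 5, the groups alone 14, a TEC term 14, and leaving out 1 library 0 to 1. With halofuginone (0) a TEC term gave 11, leaving out the 3 libraries lowest in TEC counts 5, and leaving out 1 library 0 to 3. For Atf4 KO against Rosa26 with halofuginone (28), the groups alone gave 15, leaving out those 3 libraries 44 and 1 library 20 to 45; for Cebpg KO (28), leaving out 1 library gave 14 to 31. For the Atf4 KO interaction (1), upper quartile gave 2, a TEC term 12, leaving out those 3 libraries 5 and 1 library 0 to 4; for the Cebpg KO interaction (0), a TEC term gave 11 and leaving out those 3 libraries 5. Leaving out 1 library gave 26 to 35, 27 to 41 and 30 to 37 called members for halofuginone in Rosa26, Atf4 KO and Cebpg KO, and 22 to 28 for untreated Atf4 KO against Rosa26. With the replicate block the counts were 28, 30 and 34 for halofuginone in Rosa26, Atf4 KO and Cebpg KO, 32 and 3 for Atf4 KO and Cebpg KO against Rosa26 untreated, and 28 and 26 with halofuginone. In those comparisons the samples share only a number, and not every library correlated best with its own number. Depth of 14.2 to 20.3 M counts limits the members of lowest level, such as Psmc3ip and Psmg3; intervals cover 3 libraries a group.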
